A study of Mus musculus with 8 samples.

Results

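The 8 nucleoside diphosphate kinase genes Nme1 to Nme8 were examined in mouse testis, as the rows of a table of 56748 Ensembl genes whose identifiers carry these symbols. All 8 were matched, 7 had counts and passed the filter on low counts, and Nme3 was listed at 0 counts in every library. RNA sequencing had been done on total RNA of adult testis in 8 libraries, 4 labelled Ak9-/- (the libraries labelled knockout) and 4 labelled WT (the wild types). AK9 is an adenylate kinase, and the series concerns its part in sperm motility and male fertility. No source used here gives the strain, the exact age or the nature of the Ak9 allele. Nor is it said whether each library came from its own animal, so p-values reflect library-to-library spread that may be technical.

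Nucleoside diphosphate kinases move the terminal phosphate of one nucleoside triphosphate, usually ATP, to a nucleoside diphosphate, through a phosphorylated histidine in the active site. They supply GTP, CTP and UTP from the ATP pool, while adenylate kinases balance ATP, ADP and AMP. The more ancient active enzymes are encoded by Nme1 to Nme4. Nme1 and Nme2 encode the subunits of the main cytosolic enzyme, and NME3, NME4 and NME6 are tied to mitochondria. The remaining members are more divergent and are known from cilia and the sperm tail: NME5 belongs to the radial spokes of the axoneme, NME7 to the gamma-tubulin ring complex and to the inner wall of axonemal microtubules, and NME8 joins thioredoxin and kinase-like domains in one protein of sperm and cilia. Nme5, Nme7 and Nme8 are called the sperm tail members here, and the others are set beside them as the housekeeping members.

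Total counts ran from 18062780 to 24415587 per library, and a count of 0 allows up to 0.123 to 0.166 CPM (a gene's counts scaled to a common library size). This takes 3 counts as the limit and covers counting error alone. It was set on total counts, without the TMM scaling described below that other CPM carry unless stated. The libraries labelled knockout were less alike than the wild types, with Spearman correlations across genes of 0.957 to 0.977 against 0.991 to 0.993 (genes are not independent replicates). Labelled knockouts 1 to 4 had 69.3, 116, 101 and 40.6 CPM of Ak9 itself, where wild types ranged from 107 to 122, so its transcript level did not follow the label in each library, and directions are given between labels. Labelled knockout 3 stood apart in its spermatid marker genes. It also held more of the epididymis marker genes, whose summed level was 258 CPM there, 25.3 to 51.4 CPM in the other labelled knockouts and 20.8 to 34.2 CPM in wild types. Fold changes of the members are given with and without it. Those of the gene lists and the search for similar patterns are given with it only.

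Before levels can be read, the exons of 4 members need a look, because they lie over exons of other genes. In GENCODE M21, an annotation of the GRCm38 build and not of the GRCm39 build the submitters name, Nme3 on chromosome 17 has 876 exon bases, of which 873 (99.7%) also belong to another gene. The gene Mrps34 on the same strand, for a mitochondrial ribosomal protein, covers 763 of them, and Mapk8ip3 on the other strand, for a scaffold of kinase signalling and transport, covers 577. No count was assigned to Nme3 in any of the 8 libraries, while Mrps34 stood at 5.26 to 8.10 CPM and Mapk8ip3 at 46.2 to 88.0 CPM. In that annotation Nme3 has 3 exon bases of its own, and its 0 is not read here as a level of the gene.

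Most, but not all, genes that share nearly every exon base were also at 0 in this table. Of 198 protein-coding genes with at least 99% of their exon bases shared, 137 (69.2%) were at 0 in all 8 libraries, against 1491 of 15388 (9.69%) genes with no shared base. Among 33 such genes covered by exons of the other strand and none of the same strand, 30 (90.9%) were at 0, and among 133 covered by the same strand alone, 87 (65.4%) were. Nme3 is covered from both strands, with more bases on its own. No source used here says how reads over several genes were counted or whether strand was used. This count over all genes was made after the 0 of Nme3 was seen, and the cause of that 0 was not tested.

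**Figure D1:**
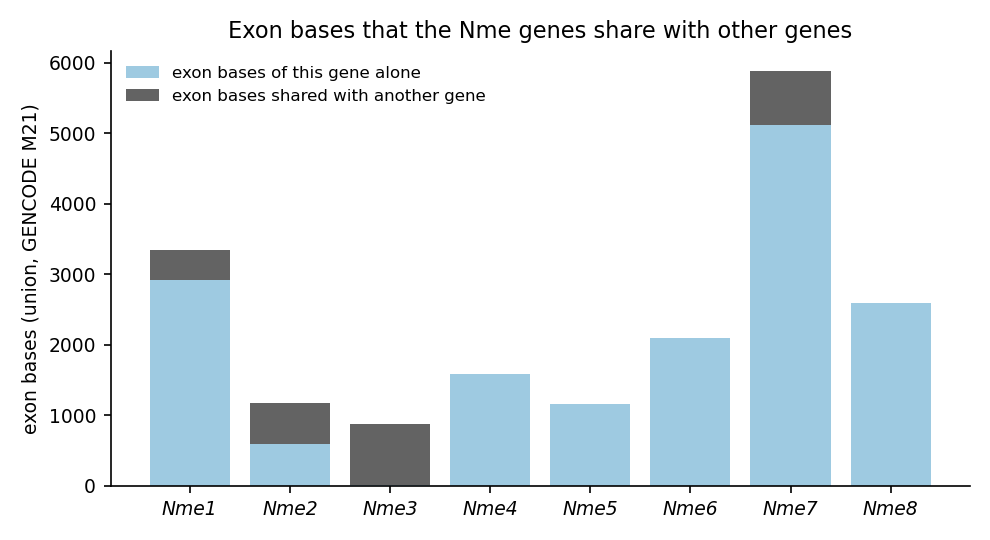
Exon bases of each Nme gene in GENCODE M21, as the union over its transcripts, split into bases that no other gene shares (light) and bases shared with exons of another gene on either strand (dark). Nme3 is almost wholly dark, with 873 of 876 bases shared, and Nme2 shares 573 of 1171.

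Nme1 and Nme2 are neighbours on the same strand of chromosome 11 and are bridged by Gm20390, an annotated read-through gene. Gm20390 covers 573 of the 1171 exon bases of Nme2 and 418 of the 3342 of Nme1, and all 991 of its own bases belong to one or the other. It had 1 count in labelled knockout 4 and 0 in the other 7 libraries. The coding sequences themselves differ enough to tell many reads apart. Over 459 coding bases, stop codon included, 367 (79.96%) are identical, the longest identical run is 29 bases, and 134 of the 152 encoded residues (88.2%) are the same. The stretch around the active-site histidine shows this, at coding bases 304 to 402 counted from the A of the start codon in the GENCODE M21 transcripts, 5′ to 3′ on the coding strand, within coding exons. Capitals mark the 17 of 99 bases that differ between the genes, and the codons of the active-site motif run from base 343 to base 363.
Nme1: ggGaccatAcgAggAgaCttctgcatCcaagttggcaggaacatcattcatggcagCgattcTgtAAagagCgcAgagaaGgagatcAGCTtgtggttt
Nme2: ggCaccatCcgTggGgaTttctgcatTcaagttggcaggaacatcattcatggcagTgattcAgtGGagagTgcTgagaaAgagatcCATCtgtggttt
The longest identical run, bases 331 to 359, covers most of the motif. Nme2 also has 3 annotated copies of at least 97.2% identity over their aligned bases, Gm5425, Gm5566 and Gm7730, none of which exceeded 0.534 CPM in any library, so reads of Nme2 could in part be counted there.

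Nme7, on chromosome 1, shares 764 of 5876 exon bases with genes of the other strand, 575 with Atp1b1, for a subunit of the sodium pump, and 189 with Blzf1, for a Golgi protein. Nme4 (chromosome 17), Nme5 (chromosome 18), Nme6 (chromosome 9) and Nme8 (chromosome 13) share none.

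Among the 7 members with counts, Nme8 and Nme5 had the highest levels in wild-type testis. The third sperm tail member, Nme7, lay below the housekeeping member Nme6. Per kilobase of exon (CPM divided by the length of the union of the exons), Nme8 stood at 82.9 ± 3.98 and Nme5 at 77.7 ± 3.38 CPM per kilobase (SD, n = 4), above 96.5% and 96.3% of the genes tested. Their wild-type ranges, 78.0 to 87.3 and 73.2 to 81.1, overlapped. Nme6 followed at 29.9 ± 2.37 and Nme7 at 16.1 ± 0.748 CPM per kilobase, above 89.3% and 81.7% of genes tested. Nme1 stood at 3.64 ± 0.347, Nme2 at 1.75 ± 0.457 and Nme4 at 1.17 ± 0.106 CPM per kilobase. Each of these neighbours in the order, from Nme5 down, was separated in all 4 wild types, though Nme2 and Nme4 nearly met, at 1.37 and 1.33.

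The order at the top depended on which length was used. With the longest transcript in place of the exon union, Nme5 came first at 106 ± 4.59 and Nme8 second at 101 ± 4.86 CPM per kilobase, again with overlapping ranges (99.5 to 110 and 95.4 to 107). Nme6 and Nme7 kept their order at 58.2 ± 4.61 and 37.2 ± 1.73. When Nme2 was divided by the 598 exon bases that no other gene shares, it stood at 3.43 ± 0.894 against 4.16 ± 0.396 for Nme1 over its 2924 such bases. On that scale the wild-type ranges of these 2 cytosolic members, 2.68 to 4.60 and 3.85 to 4.72 CPM per kilobase, overlapped, whereas per exon union they did not. Only the length was changed and not the counts. That scale thus holds only if reads over shared bases were left uncounted, which no source used here states.

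**Figure D2:**
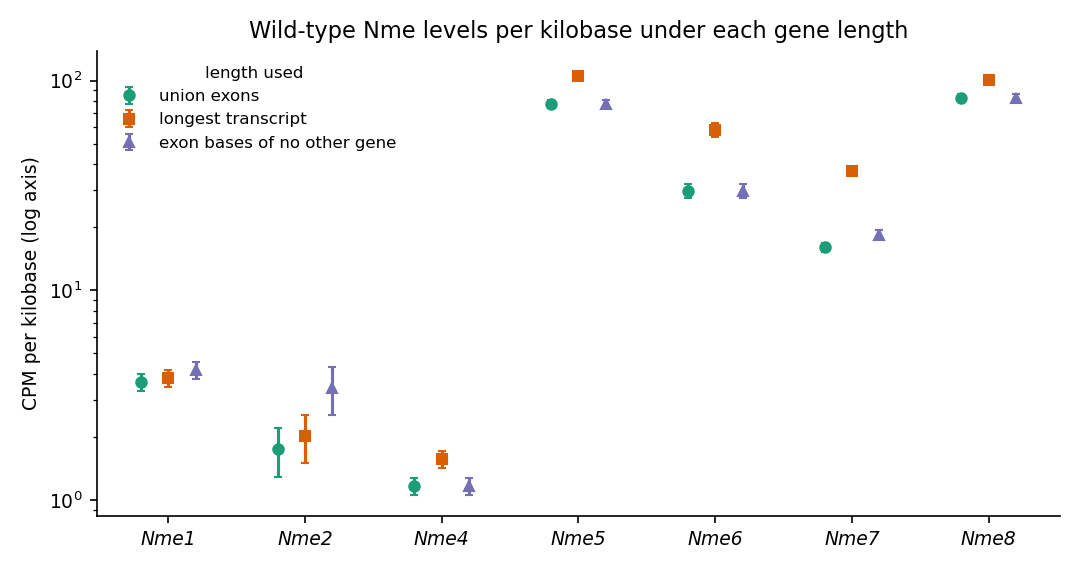
Mean wild-type level of each Nme gene with counts, in CPM per kilobase on a log axis, with bars for the SD over 4 libraries, under 3 definitions of gene length. Nme5 and Nme8 lie highest under every definition and change places between them. Nme2 moves up to the range of Nme1 when shared bases are left out of the length, with its counts unchanged.

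As a share of all counts of the family in a library, which also depends on gene length, the sperm tail members took 81.7%, 84.4%, 84.5% and 83.6% in wild types 1 to 4. The family total holds Nme3 at 0, and Nme1, Nme2 and Nme7 may lack reads over exon bases that other genes share. In labelled knockouts 1 to 4 they took 83.9%, 83.8%, 79.1% and 86.0%. The exact 95% binomial intervals were 78.1% to 80.1% in labelled knockout 3 and 85.3% to 86.7% in labelled knockout 4, and neither reached the interval of any wild type (80.9% to 85.1% over all 4). The interval of wild type 1, 80.9% to 82.5%, did not reach those of the other wild types either, which lay within 82.9% to 85.1%. These intervals cover counting error alone.

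The main comparison asked whether the family differs between testes labelled knockout and wild type. No member passed the test. In edgeR's quasi-likelihood test over 21805 genes, 0 of the 7 tested members had an adjusted p under 0.05, where 4 genes, 0.0183%, were called in all. At an unadjusted p under 0.05, 0 of 7 members were found beside 662 genes, or 3.04%. DESeq2 and limma-voom also called 0 members. Every member's CPM overlapped between the groups, and 501 genes, 2.3% of those tested, had groups that did not. The median log2 fold change was 0.03 for the 3 sperm tail members, -0.04 for the 4 tested housekeeping members and 0.01 for all genes tested.

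For Nme5, the radial spoke member, labelled knockouts 1 to 4 read 110, 117, 56.1 and 107 CPM, whereas wild types 1 to 4 read 89.2, 84.5, 93.6 and 91.3 CPM. All but one of the labelled knockouts lay above every wild type, and labelled knockout 3 lay below every wild type, at 62.5% of their mean. The group means were 97.3 ± 27.8 and 89.6 ± 3.899 CPM (SD, n = 4 per group). The log2 fold change of labelled knockout over wild type was 0.12 (SE 0.19, 95% interval -0.30 to 0.54, edgeR adjusted p = 1.00). A two-sided exact permutation test, which cannot go below 0.0286 here, gave p = 0.686.

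For Nme8, the thioredoxin-domain member, labelled knockouts 1 to 4 read 234, 239.6, 119 and 257 CPM, whereas wild types 1 to 4 read 202, 212, 226 and 219 CPM. The arrangement was that of Nme5, with labelled knockout 3 at 55.4% of the wild-type mean and the other labelled knockouts above all wild types. Its log2 fold change was -0.02 (SE 0.20, 95% interval -0.46 to 0.42, edgeR adjusted p = 1.00).

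For Nme7, of the gamma-tubulin ring complex and the axonemal microtubule wall, labelled knockouts 1 to 4 read 109.7, 105, 65.6 and 105 CPM, whereas wild types 1 to 4 read 91.0, 90.1, 98.0 and 98.3 CPM. Labelled knockout 3 was again lowest, at 69.6% of the wild-type mean, and again the other labelled knockouts exceeded all wild types. The log2 fold change was 0.03 (SE 0.15, 95% interval -0.30 to 0.36, edgeR adjusted p = 1.00). Of the genes that share exon bases with Nme7, Atp1b1 had a log2 fold change of -0.13 (SE 0.12) and Blzf1 by one of 0.07 (SE 0.11), neither past the test.

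The place of the other labelled knockouts above the wild types rested in part on the scaling. CPM here are scaled by TMM, a correction for the makeup of each library, with factors of 0.932, 0.998, 1.13 and 0.903 in labelled knockouts 1 to 4 and 0.999 to 1.04 in wild types. In CPM of total counts without TMM, Nme5 was at 102, 116 and 96.0 in labelled knockouts 1, 2 and 4, still above all wild types (87.5 to 94.8). Nme8 in labelled knockout 1, at 218, then fell within the wild-type range of 202 to 229, and Nme7 in labelled knockout 4, at 95.04, within that of 90.8 to 99.2. Labelled knockout 3 stayed below all wild types for all 3 genes on this scale too, at 62.9 for Nme5, 73.6 for Nme7 and 134 for Nme8.

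**Figure D3:**
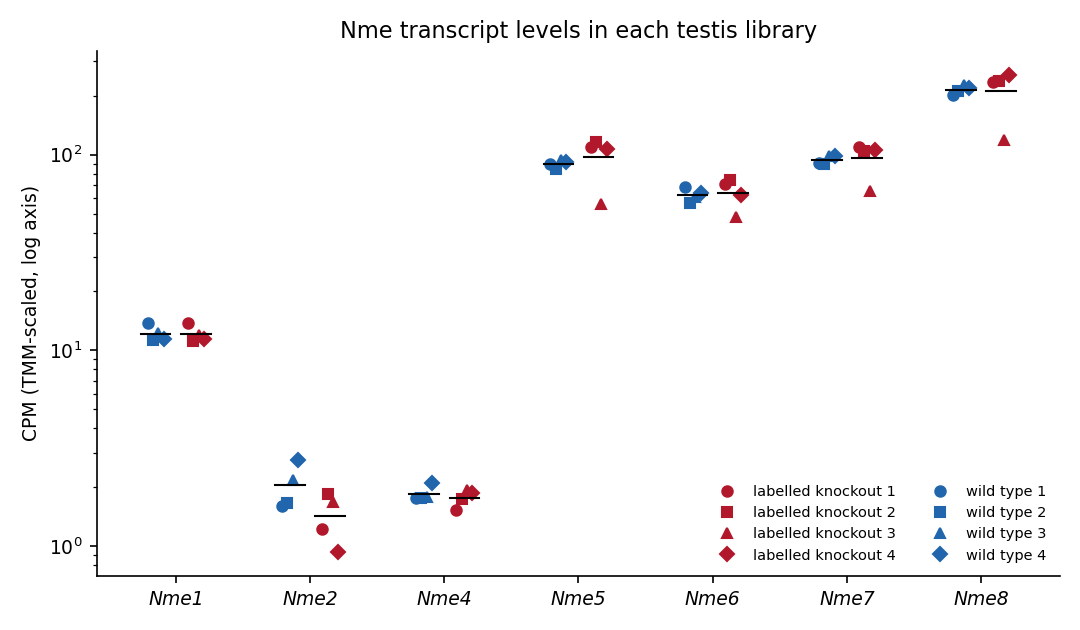
TMM-scaled CPM of the 7 Nme genes with counts in each of the 8 libraries, on a log axis, with wild types in blue, labelled knockouts in red, and a black line at each group mean. For Nme5, Nme7 and Nme8 the wild types lie close together while labelled knockout 3 (red triangle) lies below them, at 56.1, 65.6 and 119 CPM.

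Among the housekeeping members, labelled knockouts 1 to 4 read 70.8, 74.2, 47.8 and 61.9 CPM for Nme6, a mitochondrial member, whereas wild types 1 to 4 read 68.6, 57.0, 60.6 and 63.8 CPM. Labelled knockout 3 was below every wild type here as well, at 76.5% of their mean, but labelled knockout 4 lay within their range. Its log2 fold change was 0.03 (SE 0.14, 95% interval -0.27 to 0.33, edgeR adjusted p = 1.00).

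For Nme1, a subunit of the cytosolic enzyme, labelled knockouts 1 to 4 read 13.8, 11.2, 12.04 and 11.5 CPM, whereas wild types 1 to 4 read 13.8, 11.3, 12.2 and 11.4 CPM. The ranges of the 2 groups nearly coincided, and labelled knockout 3, at 98.9% of the wild-type mean, did not stand apart. The log2 fold change was 0.00 in size at 2 decimals (-0.0036, SE 0.13, 95% interval -0.29 to 0.29, edgeR adjusted p = 1.00).

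For Nme2, the other cytosolic subunit, labelled knockouts 1 to 4 read 1.22, 1.83, 1.68 and 0.933 CPM, from 16 to 38 counts, whereas wild types 1 to 4 read 1.60, 1.66, 2.18 and 2.75 CPM, from 30 to 55 counts. Labelled knockouts 1 and 4 lay below every wild type and the others within their range. It had the log2 fold change farthest from 0 among the 7 tested members, -0.53, with a wide error (SE 0.28, 95% interval -1.15 to 0.10, edgeR adjusted p = 1.00). With the counts of Nme1, Nme2 and their read-through summed, the locus read 15.01, 13.03, 13.7 and 12.5 CPM in the labelled knockouts, in order, whereas wild types 1 to 4 read 15.4, 12.9, 14.4 and 14.1 CPM, a log2 fold change of -0.07 (SE 0.12, 95% interval -0.33 to 0.20).

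For Nme4, a kinase of the mitochondrial intermembrane space, labelled knockouts 1 to 4 read 1.53, 1.74, 1.92 and 1.87 CPM, whereas wild types 1 to 4 read 1.76, 1.75, 1.78 and 2.10 CPM, from 32 to 44 counts. Labelled knockout 3 was highest among the labelled knockouts. The log2 fold change was -0.07 (SE 0.20, 95% interval -0.52 to 0.38).

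Precision was set by depth for some members and by spread between libraries for others. Counting error alone was 1.34% to 2.04% of the value for Nme8 and 2.03% to 2.97% for Nme5, below their spread among wild types (coefficients of variation of 4.80% and 4.35%). For Nme4 it was 15.1% to 17.7% and for Nme2 13.5% to 25%. The 95% intervals of the fold change ran from 0.811 to 1.45 for Nme5, 0.814 to 1.28 for Nme7, 0.728 to 1.34 for Nme8 and 0.451 to 1.07 for Nme2, which are the fold changes compatible with these libraries. For Nme5 and Nme8 the spread among libraries labelled knockout (coefficients of variation of 28.6% and 29.7%) far exceeded counting error.

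The sperm tail members were high or low in the same libraries labelled knockout, and Nme6 was also low in labelled knockout 3 (-0.38). Relative to the wild-type mean of each gene, the mean log2 CPM of Nme5, Nme7 and Nme8 was 0.21, 0.23, -0.68 and 0.22 in labelled knockouts 1 to 4 and -0.06 to 0.07 in wild types. For Nme1, Nme2, Nme4 and Nme6 it was -0.15, -0.02, -0.15 and -0.29 in labelled knockouts 1 to 4 and -0.14 to 0.15 in wild types. That mean includes Nme2 and Nme4, which rest on 16 to 55 counts. For Nme1 and Nme6 alone it was 0.18, 0.07, -0.20 and -0.04 in labelled knockouts 1 to 4 and -0.12 to 0.16 in wild types. Labelled knockout 3 was lowest in this mean through Nme6, while Nme1 was at -0.01 there. These are descriptions of chosen members, and the difference between the sets was not tested.

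Ratios of counts within a library do not depend on scaling between libraries. The ratio of Nme5 to Nme6 was 1.55, 1.57, 1.17 and 1.72 in labelled knockouts 1 to 4 and 1.30 to 1.55 in wild types. That of Nme8 to Nme6 was 3.31, 3.23, 2.49 and 4.15 against 2.95 to 3.74, and that of Nme7 to Nme6 was 1.55, 1.41, 1.37 and 1.70 against 1.33 to 1.62. Labelled knockout 3 thus had the lowest Nme5 to Nme6 and Nme8 to Nme6 ratios of the 8 libraries and labelled knockout 4 the highest of all 3 ratios.

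Spermatid marker genes ran alike in the same libraries. The score of round spermatid markers, the mean log2 CPM of the list minus its wild-type mean, was 0.35, 0.26, -0.72 and 0.27 in labelled knockouts 1 to 4, and that of elongating spermatid markers was 0.39, 0.09, -0.78 and 0.48. Their summed levels were 763 to 1556 CPM in libraries labelled knockout against 1107 to 1289 in wild types for round spermatids, and 10244 to 23863 against 15554 to 19357 CPM for elongating spermatids, with 10 of 10 genes tested in each list and labelled knockout 3 at the lowest value in both. Spermatocyte markers had scores between -0.03 and 0.09 in the libraries labelled knockout. Sertoli cell markers had scores of -0.21, -0.04, 0.46 and -0.50, and spermatogonia markers, 9 of 10 with a log2 fold change below 0, had -0.40, -0.04, 0.16 and -0.31, both highest in labelled knockout 3. Leydig cell markers were below 0 in 10 of 10 genes, with a median of -0.34 and scores of -0.42, -0.57, -0.19 and -0.94. No gene of these lists passed the test. In bulk testis, fewer cells of a type and less RNA per cell cannot be told apart. The part of spermatid content in the levels of Nme5, Nme7 and Nme8 was not tested.

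**Figure D4:**
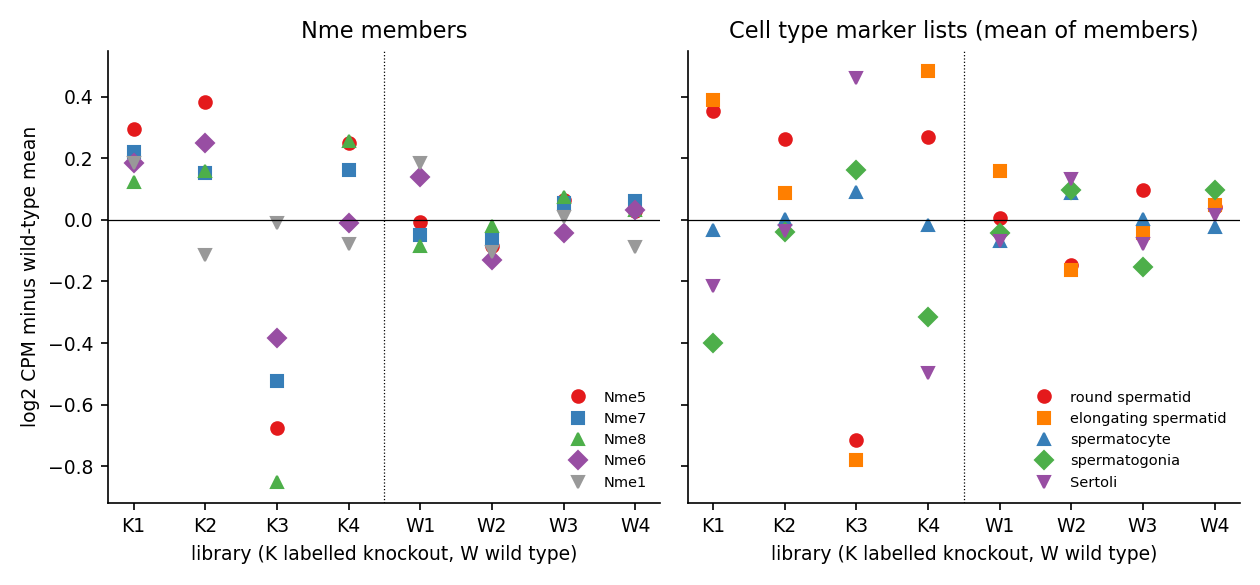
Log2 CPM minus the wild-type mean in each library, for 5 Nme genes (left) and for the mean over cell type marker lists (right), with labelled knockouts K1 to K4 left of the dotted line and wild types W1 to W4 right of it. In K3, Nme8 at -0.85, Nme5 at -0.68 and Nme7 at -0.52 lie low with the round and elongating spermatid lists at -0.72 and -0.78, while Nme1 lies at -0.01.

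Nme5, Nme7 and Nme8 are also expressed in ciliated epithelium, so markers of ducts were checked. The list joins genes of the multiciliated programme with other duct genes such as Esr1, Aqp1 and Slc9a3, and spermatids also express several of them. It summed to 69.2 CPM in labelled knockout 3, 90.2 to 132 CPM in the other labelled knockouts and 81.6 to 94.8 CPM in wild types. Of this sum Foxj1, a cilia transcription factor also made by spermatids, gave 47.4 CPM in labelled knockout 3. Mcidas and Gmnc, which start the multiciliated programme, were at most 0.404 and 0.700 CPM in any library. Of the epididymis list 2 of 10 genes passed the filter on low counts. Its genes Crisp1 and Adam7 were at 185 and 26.2 CPM in labelled knockout 3 and at 24.4 and 4.198 CPM in labelled knockout 4, while Gpx5 and Cst11 had 0 CPM in both. Crisp1 and Adam7 were at most 0.534 CPM in the remaining libraries, and their part in the Nme levels was not tested.

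Leaving out labelled knockout 3, chosen here because its values stood apart, removed the overlap between groups for the sperm tail members in TMM-scaled CPM. On that scale every remaining labelled knockout lay above every wild type for Nme5, Nme7 and Nme8, as for 1925 of 22131 genes, or 8.7%. In CPM of total counts without TMM it held for Nme5 only. Nme7 in labelled knockout 4 (95.04) then lay within the wild-type range of 90.8 to 99.2. Nme8 in labelled knockout 1 (218) lay within that of 202 to 229. Nme5 had 109 ± 5.82 CPM (n = 3) against 88.4 ± 3.42 (n = 4), a log2 fold change of 0.30 (SE 0.07, 95% interval 0.14 to 0.45). Nme7 and Nme8 had log2 fold changes of 0.16 (95% interval 0.02 to 0.31) and 0.17 (95% interval 0.01 to 0.32). None passed over all genes, with edgeR adjusted p = 0.0960, 0.222 and 0.232, where 35 genes, 0.158%, were called. The 95% intervals of this fit are not adjusted for the number of genes tested. Of the housekeeping members Nme6 had a log2 fold change of 0.13 (95% interval -0.07 to 0.33) and Nme1 one of -0.01 (95% interval -0.29 to 0.27). Nme2 had the value farthest from 0 of all 7 members in that fit, -0.63 (95% interval -1.28 to 0.03, edgeR adjusted p = 0.279), and Nme4 had -0.13 (95% interval -0.58 to 0.33).

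**Figure D5:**
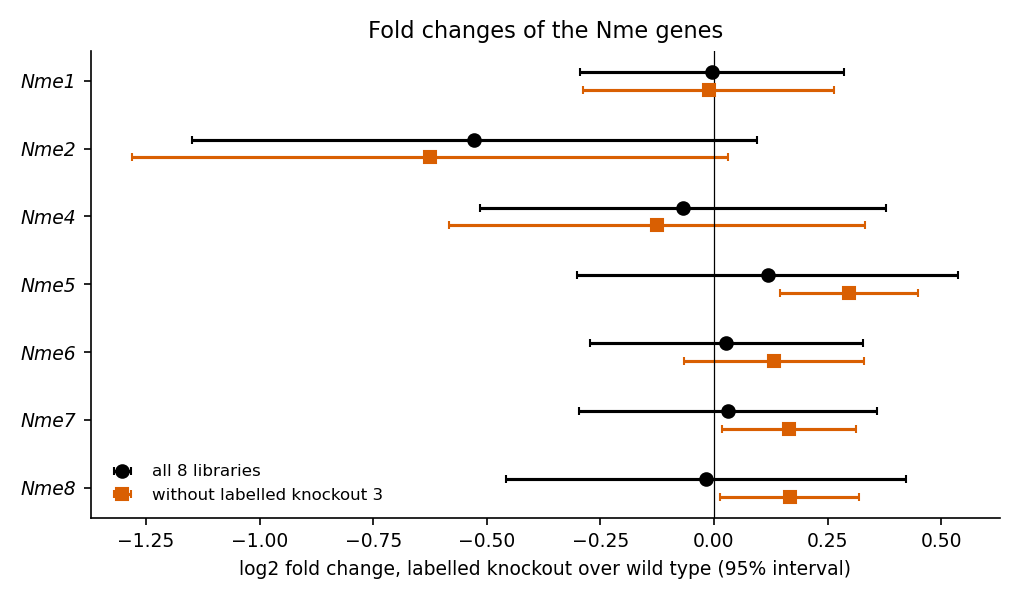
Log2 fold change of labelled knockout over wild type for each tested Nme gene, with its 95% interval, from all 8 libraries (black circles) and without labelled knockout 3 (orange squares). The intervals of Nme5, Nme7 and Nme8 narrow and lie above 0 without that library, at 0.30, 0.16 and 0.17, and no adjusted p was below 0.05. That library was left out because its values stood apart, and the intervals are not adjusted for the number of genes tested.

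Genes with patterns closest to each sperm tail member were sought over the 8 libraries among 14342 other genes with a mean of at least 1 CPM. Genes with predicted, clone or pseudogene names were left out of these candidates, so the ranks below are not among all genes. The measure was the root mean square difference between log2 CPM after each gene's mean was subtracted. Closest to Nme5 were Fam229b (0.032), Gtsf1 (0.041), a piRNA pathway gene, and Cast (0.046), the calpain inhibitor calpastatin. Labelled knockouts 1 to 4 read 855, 862, 444 and 801 CPM for Fam229b, whereas wild types ranged from 660 to 724. Closest to Nme7 were Sgms2 (0.038), a sphingomyelin synthase, Kcnmb4os1 (0.040), an antisense gene whose reads may not be told from its partner's, and Tmem178b (0.040). Closest to Nme8 were Ngly1 (0.043), which removes sugar chains from proteins, Tcp11x2 (0.045) and Lrrd1 (0.050).

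These genes were picked as the 3 closest of 14342 candidates, so any other gene is less close by selection. The places of the family members among the same candidates were as follows. From Nme5, Nme8 ranked 216 at 0.10 and Nme7 ranked 238 at 0.10, while the housekeeping member Nme6 ranked 903 at 0.16. From Nme8, Nme5 ranked 135, Nme7 304 and Nme6 1709. From Nme7, Nme5 ranked 478 at 0.104, Nme6 725 at 0.117 and Nme8 826 at 0.122, so that the housekeeping member Nme6 lay nearer to Nme7 than Nme8 did.

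Other genes of the same pathways showed no member past the threshold in any list. Of 26 enzymes that make or interconvert nucleotides, 12 had log2 fold changes above 0 and 14 below, with a median of 0.00 in size (-0.0023) against 0.01 for all genes tested. The smallest p values were those of Cmpk2, a mitochondrial UMP-CMP kinase, at 3.06 ± 0.865 against 4.16 ± 0.953 CPM (-0.45 on the log2 scale, SE 0.25), and Dhodh, of pyrimidine synthesis, at 6.58 ± 1.13 against 8.03 ± 0.697 CPM (-0.29, SE 0.17).

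Genes of axonemal complexes that hold sperm tail members had log2 fold changes above 0 in each tested case, as had 11533 of the 21805 genes tested and 10 of 10 markers of round and of elongating spermatids (medians 0.09 and 0.11). All 12 tested radial spoke genes, the complex of Nme5, were above 0 with a median of 0.10. Cfap61, a spoke component, had 79.2 ± 15.6 against 57.7 ± 1.89 CPM (0.46 on the log2 scale, SE 0.14) and Rsph10b 53.8 ± 13.5 against 46.7 ± 3.83 CPM (0.20, SE 0.17). The score of this list was 0.39, 0.07, -0.46 and 0.40 in labelled knockouts 1 to 4. All 20 tested microtubule inner protein genes were above 0 with a median of 0.17, among them Cfap45 (0.26, SE 0.15) and Cfap52 (0.21, SE 0.12), and their score was 0.39, 0.14, -0.36 and 0.34. Labelled knockout 3 was lowest in both lists, as for Nme5 and Nme7.

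In the gamma-tubulin ring complex, the other site of NME7, values lay on both sides of 0. Of 11 genes 7 were above 0, the median was 0.02, and the score was -0.07, -0.05, 0.04 and 0.09 in labelled knockouts 1 to 4. The log2 fold change of Tubgcp5 was -0.16 (SE 0.16) and that of Tubgcp4 0.10 (SE 0.11). Thioredoxin genes of sperm, related to Nme8, were 4 of 4 above 0 with a median of 0.12, led in p by Txnrd3, a thioredoxin reductase of testis, at 493 ± 101.0 against 457 ± 20.5 CPM (0.11, SE 0.15).

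Partners of the housekeeping members stayed close to 0. Genes of the SET complex and Prune1, partners of NME1, had a median of -0.02 over 5 tested genes, with Prune1 at 0.10 (SE 0.10) and Set at 0.07 (SE 0.09). Mitochondrial genes known to work with NME3, NME4 or NME6 had a median of 0.01 over 6 genes, with Slc25a33, a pyrimidine nucleotide carrier, at 0.18 (SE 0.13) and Opa1, of inner membrane fusion, at 0.07 (SE 0.09).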

How the data were processed

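The authors deposited raw counts per Ensembl gene, as whole numbers. The tools named are Trimmomatic, STAR, featureCounts and DESeq2, with GRCm39 and mm39, per the submitters' processing notes, and per the labels' protocols libraries were made with an Illumina TruSeq RNA kit. No source used here gives versions, annotation, strand setting or the rule for reads over several genes. Of 56748 identifiers, 52073 had a symbol, and 0 columns lacked a sample.

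Counts were filtered with filterByExpr (minimum count 10, minimum total 15), leaving 21805 genes, scaled by TMM and tested by quasi-likelihood in edgeR 4.0.16 (R 4.3.3, with limma 3.58.1), Benjamini-Hochberg adjusted over all genes, threshold 0.05. CPM are TMM-scaled over tested genes. SEs were obtained by dividing |log2 fold change| by √F. Exon lengths, overlaps and coding sequences came from GENCODE M21 (GRCm38), used without coordinates, and copies from blastn 2.17.0. The scripts were tested on simulated counts.

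Named genes were the members, their overlapping genes and copies, Ak9, the 3 nearest patterns for each sperm tail member, and from each related list the 2 smallest p. Marker genes, Nme9 in the closing section and the list of duct genes shown were named after their values were seen. Members and lists were chosen with earlier results of these data known. Of 15 radial spoke genes 13 and of 24 microtubule inner protein genes 20 were matched. Tried as alternatives were a replicate block, RLE factors, no low-count filter, a filter at mean CPM 1, limma-voom (plain or quality-weighted), DESeq2 1.42.0, leaving out each library, other gene lengths and, added after the data were seen, no TMM and unshared exon length.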

Additional observations from a re-analysis of the deposited data

Results flagged for a closer look

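In 28 groups of 4 libraries (the 7 members with counts and Ak9, and 6 count ratios, in each label), Dixon's test at 95% picked out 4 values, where chance alone picks about 5% of groups. In labelled knockout 3, Nme5 was at 56.1, Nme7 at 65.6 and Nme8 at 119 CPM, each far below the other libraries labelled knockout. These 3 values come from 1 library and are not independent. Nme4 was at 2.10 CPM in wild type 4, above the other wild types at 1.75 to 1.78 CPM, and rests on 42 counts.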

How the results depend on the processing

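No member passed the threshold under any alternative, and the smallest adjusted p was 0.0960, for Nme5 in edgeR without labelled knockout 3. Of 113 member values under alternatives 96 kept their direction and 17 did not, none of these larger than 0.17 in size. Nme1 turned to 0.00040 in DESeq2, 0.0017 in limma-voom and 0.031 with quality weights, Nme8 to 0.10 with quality weights, and Nme6 and Nme7 to -0.020 and -0.025 without TMM. Leaving out 1 library at a time gave log2 fold changes of -0.075 to 0.061 for Nme1, -0.68 to -0.36 for Nme2, -0.13 to -0.0021 for Nme4, 0.0018 to 0.30 for Nme5, -0.068 to 0.13 for Nme6, -0.044 to 0.16 for Nme7, -0.12 to 0.17 for Nme8, -0.12 to -0.03 for the summed locus and -0.69 to -0.24 for Ak9, and 3 to 35 genes called in all. All genes called numbered 26 without the filter, 47 in DESeq2 and 14 in limma-voom with quality weights, against 4. The cause was not tested. Same-numbered libraries of the 2 labels deviated together little (correlations -0.02 to 0.07), so the numbers were not taken as pairs. With the replicate block 4 genes and 0 members were called, and Nme5 was at 0.07, Nme8 at -0.07 and Nme2 at -0.52. Nme3 had no count and gave no value under any alternative. Depth limits Nme2 and Nme4, at 16 to 55 counts a library.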

Other observations

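Nme9, a further relative of Nme8 with a thioredoxin domain, varied more between the libraries labelled knockout than any member. Labelled knockouts 1 to 4 read 3.34, 3.43, 1.33 and 0.466 CPM, the last from 8 counts, whereas wild types ranged from 1.53 to 1.90. Labelled knockouts 1 and 2 lay above and 3 and 4 below every wild type, and the log2 fold change was 0.33 (SE 0.47, edgeR adjusted p = 1.00). Rp2, which has a kinase-like domain of this family and acts in cilia, read 43.2 ± 10.4 CPM under the knockout label and 40.8 ± 2.11 CPM under WT (SD, n = 4 each).

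The ratio of Nme8 to Nme5 counts came to 2.13, 2.05, 2.12 and 2.41 for labelled knockouts 1 to 4, whereas wild types 1 to 4 gave 2.27, 2.51, 2.42 and 2.40. The first 3 labelled knockouts, including labelled knockout 3 in which both genes were low, lay below every wild type, and labelled knockout 4 within their range. This ratio was not alone in that. The ratio of Nme5 to Nme7 was 1.001, 1.11, 0.854 and 1.01 in labelled knockouts 1 to 4 against 0.929 to 0.979 in wild types. There labelled knockout 3 lay below every wild type and the other labelled knockouts above. For Nme8 to Nme7 it was 2.13, 2.28, 1.81 and 2.44 against 2.22 to 2.35. Differences in these ratios between labels were not tested, and other gene pairs were not compared.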
